A study of Mus musculus with 16 samples.

Results

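The imprinted genes examined here are 50 mouse genes of 16 imprinted clusters or single loci, 7 of them noncoding RNAs. They were taken by name from a list of known imprinted genes and the noncoding RNAs of their clusters, by a rule that uses no measured value, and form 50 of the 34328 protein-coding and long noncoding RNA genes on chromosomes 1 to 19 and X. The measure was the covered share, the percent of a gene body plus 5 kb on each side that lay inside peaks of H3K27me3. All 50 genes were found by symbol, and their windows ran from 11.1 to 481.6 kb. The windows of 22 members overlap that of another member, so neighbouring members share peaks.

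H3K27me3 had been mapped by chromatin immunoprecipitation and sequencing in splenic B cells of C57BL/6 mice 6 to 8 weeks old, isolated with CD43 microbeads. The mice were WT or Ifih1/Rigi/cGAS triple mutant, that is, mutant in 3 genes for cytosolic sensors of nucleic acids. The labels say no more of the alleles or of whether animals were pooled. The culture of all arms lasted 48 hours and held BAFF and IL-4, cytokines for B cells. One arm of each genotype received the solvent DMSO and the other 1 µM GSK343, an inhibitor of the methyltransferase EZH2. Each of the 4 arms had 2 ChIP and 2 input samples, and was analysed as 1 list of broad peaks, so no spread between replicates can be given and every difference below describes these lists with no test. A run of 4 values or counts follows 1 order: DMSO then GSK343 in WT, followed by DMSO then GSK343 in the mutant.

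Imprinted genes are expressed from the maternal or the paternal copy alone. At many of them, though not all, the choice is set in the germ line by DNA methylation at imprinting control regions. A cluster often holds a long noncoding RNA whose transcription silences neighbouring genes on the same chromosome copy. Polycomb repressive complex 2, whose catalytic subunit is EZH2, deposits H3K27me3 and takes part in silencing at several clusters, best known from the Kcnq1 and Igf2r clusters in placenta. The peak lists do not separate the parental copies and hold no expression, so the allele named for a member below is textbook knowledge. A lower covered share through fewer cells carrying the mark cannot be told apart from less of the mark per cell.

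The 8 promoters printed here show members whose start site lay in a peak in all, some or none of the lists. Each run is the 250 bases before a start site in GRCm38.p6 from RefSeq, read 5′ to 3′ on the gene's strand, with the dinucleotide CG in capitals. Ascl2 (chr7:142969265-142969514, minus strand), Phlda2 (chr7:143502525-143502774, minus), Dio3 (chr12:110278980-110279229, plus) and Plagl1 (chr10:13090582-13090831, plus) had the start site in a peak in all 4 lists. Meg3 (chr12:109540746-109540995, plus) had it in a peak in the 2 DMSO lists, and Airn (chr17:12741061-12741310, plus) in WT DMSO alone. Cd81 (chr7:143052500-143052749, plus) and Igf2r (chr17:12769707-12769956, minus) had it in no peak. With a q-value of at most 0.01, the start sites of Dio3 and Plagl1 lay in no WT GSK343 peak.
Ascl2: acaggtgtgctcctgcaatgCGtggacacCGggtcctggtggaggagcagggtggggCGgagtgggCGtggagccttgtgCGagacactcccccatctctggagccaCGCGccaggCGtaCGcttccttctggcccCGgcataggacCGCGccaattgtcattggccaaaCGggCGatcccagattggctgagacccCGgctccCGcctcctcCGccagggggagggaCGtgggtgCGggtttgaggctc
Phlda2: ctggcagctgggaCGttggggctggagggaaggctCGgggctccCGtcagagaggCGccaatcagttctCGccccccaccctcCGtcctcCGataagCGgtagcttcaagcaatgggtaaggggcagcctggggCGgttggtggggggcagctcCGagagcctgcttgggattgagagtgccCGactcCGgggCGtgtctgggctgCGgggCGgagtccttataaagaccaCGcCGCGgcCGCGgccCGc
Dio3: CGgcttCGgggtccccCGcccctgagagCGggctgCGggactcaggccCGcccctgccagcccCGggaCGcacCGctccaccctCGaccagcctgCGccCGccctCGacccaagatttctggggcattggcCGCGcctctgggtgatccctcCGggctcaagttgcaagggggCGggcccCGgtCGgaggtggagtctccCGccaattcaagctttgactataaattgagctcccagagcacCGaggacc
Plagl1: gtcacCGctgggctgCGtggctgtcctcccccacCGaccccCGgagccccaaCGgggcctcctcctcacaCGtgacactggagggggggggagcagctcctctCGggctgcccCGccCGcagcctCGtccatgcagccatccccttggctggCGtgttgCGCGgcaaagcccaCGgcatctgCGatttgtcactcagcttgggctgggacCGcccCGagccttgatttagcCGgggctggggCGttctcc
Meg3: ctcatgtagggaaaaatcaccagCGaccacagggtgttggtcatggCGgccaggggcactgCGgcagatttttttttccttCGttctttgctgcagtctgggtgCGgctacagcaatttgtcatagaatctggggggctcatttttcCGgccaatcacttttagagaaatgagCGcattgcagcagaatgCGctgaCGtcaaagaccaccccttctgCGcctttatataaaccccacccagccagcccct
Airn: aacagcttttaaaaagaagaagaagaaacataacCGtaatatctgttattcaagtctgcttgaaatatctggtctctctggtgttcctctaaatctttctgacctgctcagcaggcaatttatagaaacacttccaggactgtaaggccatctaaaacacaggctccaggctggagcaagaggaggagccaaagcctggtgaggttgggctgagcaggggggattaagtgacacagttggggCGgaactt
Cd81: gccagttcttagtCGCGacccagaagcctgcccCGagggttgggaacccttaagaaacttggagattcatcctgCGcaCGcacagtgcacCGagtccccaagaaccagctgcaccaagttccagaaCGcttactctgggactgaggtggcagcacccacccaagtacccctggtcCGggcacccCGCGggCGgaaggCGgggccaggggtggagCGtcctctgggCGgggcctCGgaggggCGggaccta
Igf2r: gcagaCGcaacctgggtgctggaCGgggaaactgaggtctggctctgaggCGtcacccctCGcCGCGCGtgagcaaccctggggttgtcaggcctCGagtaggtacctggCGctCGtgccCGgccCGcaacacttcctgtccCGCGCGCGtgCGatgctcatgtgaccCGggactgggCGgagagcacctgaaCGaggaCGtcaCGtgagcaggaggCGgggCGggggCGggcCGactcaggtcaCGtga
CG reads the same on both strands, does not overlap itself, and occurred 19 times in the Ascl2 run, 21 in Phlda2, 21 in Dio3, 19 in Plagl1, 10 in Meg3, 2 in Airn, 16 in Cd81 and 27 in Igf2r. At least 1 CG stood in 92.2% of 32619 promoters of this length, and at least 19 in 19.9%. The richest run here, that of Igf2r, lay in no peak, and that of Airn, with only 2, ran up to the peak in WT DMSO.

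Peaks were unevenly spread over the set. At least 1 bp of the window lay in a peak for 34 of the 50 members under DMSO and 25 under GSK343 in WT and 36 and 22 in the mutant. Over all genes the same was true of 40.2%, 22.7%, 45.7% and 20.9%, but the members' windows are longer, with a median of 47.3 kb against 22.8 kb. Of the 20 members with windows under 30 kb, 14, 10, 13 and 9 were overlapped. For genes of that size it was 35.76%, 18.96%, 41.17% and 17.14%. At least 50% of the window was covered for 6 members under DMSO and 0 under GSK343 in WT and 9 and 0 in the mutant, against 5.29%, 1.28%, 8.24% and 0.973% of all genes. Among the 20 members with windows under 30 kb the counts were 6, 0, 8 and 0, where 7.41%, 1.97%, 11.0% and 1.49% of 21335 genes of that size were covered so far. The median member was covered by 3.56% under DMSO and 0.251% under GSK343 in WT and 7.56% and 0% in the mutant, and the median of all genes was 0 in each list. With only peaks of at least 3-fold, the members overlapped were 18 in WT DMSO and 20 in mutant DMSO, against 19% and 20.8% of all genes.

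**Figure D1:**
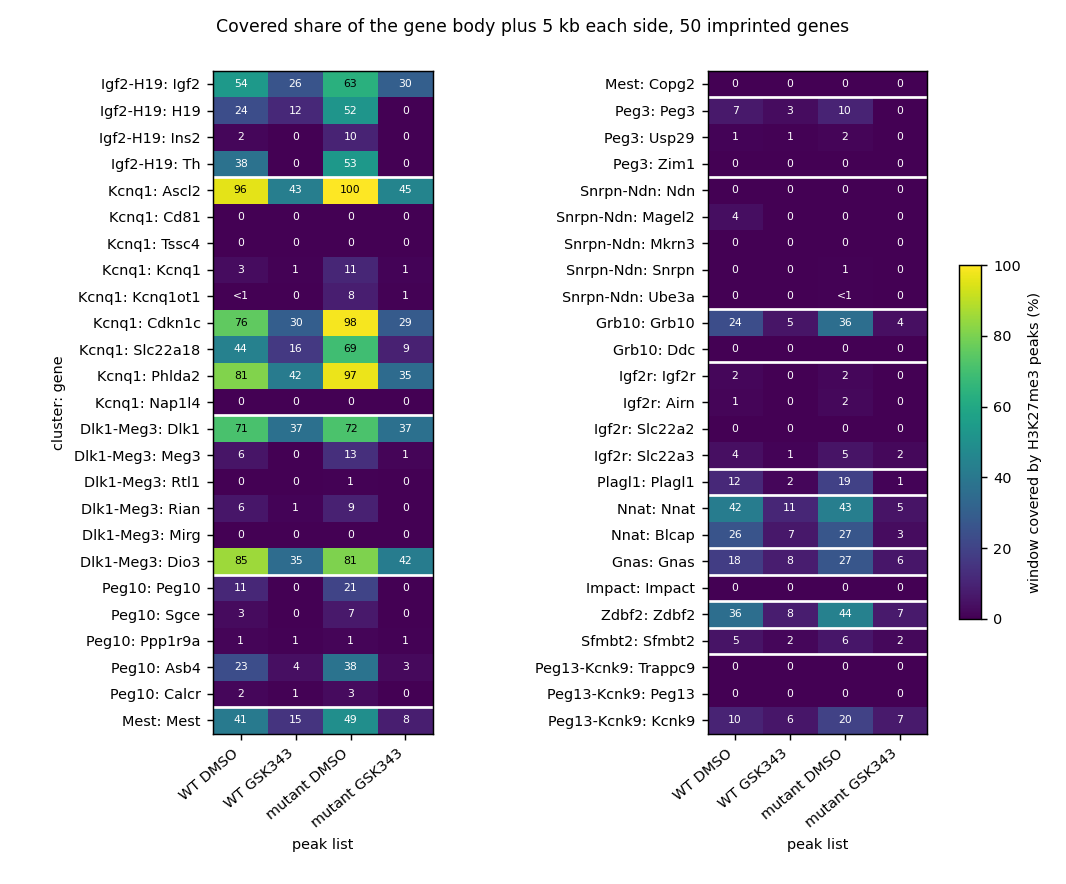
Percent of each gene window (gene body plus 5 kb on each side) inside H3K27me3 peaks, for the 50 imprinted genes by cluster (rows, clusters parted by white lines) in each of the 4 peak lists (columns), with the rounded percent in each cell. The highest shares stand at Ascl2, Cdkn1c, Phlda2, Dio3 and Dlk1, and 13 genes are at 0 in all 4 lists.

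Whole-list facts touch every value. The lists held 39495 peaks under DMSO and 11903 under GSK343 in WT and 49803 and 10847 in the mutant, covering 84.3, 21.1, 134 and 16.95 Mb. Read depth is unknown from these lists, and the part of depth or of ChIP efficiency in the differences was not tested. In the mutant lists the prefix of the peak names ends in 1, so whether they rest on both replicates is not settled by the lists. As a check of the labelled cells, 7 B cell genes had no base in a peak in any list. They were Cd79a, Cd79b, Ms4a1, Pax5, Ebf1, Cd22 and Blnk. Of 9 genes of other cell types 4, 3, 5 and 2 were overlapped, beside 40.2%, 22.7%, 45.7% and 20.9% of all genes. Cd8a, Itgax, Hbb-bt and Gata1 among these 9 also had none in any list, so lack of a peak alone does not mark a B cell gene.

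The Kcnq1 cluster on chromosome 7 held 3 of the 6 members covered by at least 50% in WT DMSO, Ascl2, Cdkn1c and Phlda2. Its span of 593 kb was covered by 13.7% under DMSO and 4.03% under GSK343 in WT and 22% and 3.81% in the mutant. Wide peaks lay toward each end of the span and at one end of Kcnq1. Ascl2 (chr7:142966822-142969264), a maternally expressed transcription factor needed for the placenta, was covered by 95.9% under DMSO and 42.7% under GSK343 in WT and 100% and 45.2% in the mutant. The peak over it was 18.7 kb wide in WT DMSO (chr7:142962336-142980998, 3.61-fold over background by the authors' value) and 21.5 kb in mutant DMSO, the widest of the cluster in both. Under GSK343 the widest peak over Ascl2 in the mutant was 5.44 kb.

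At the other end, Cdkn1c (chr7:143458339-143461059) encodes the cyclin-dependent kinase inhibitor p57 and is maternally expressed. Its window was covered by 75.8% under DMSO and 30.0% under GSK343 in WT and 98.5% and 28.8% in the mutant. Slc22a18 (chr7:143473726-143499334), a membrane transporter, had shares of 44.0%, 16.4%, 69.4% and 9.10%. Phlda2 (chr7:143501545-143503145), which restrains placental growth, had 81.2%, 41.5%, 97.1% and 35%. All 3 were lower in each GSK343 list than in the DMSO list of the same genotype. The widest WT GSK343 peak of the whole cluster, 4.82 kb (chr7:143499231-143504047), lay over Phlda2 and the adjoining end of Slc22a18.

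The domain ended short of the next gene. The near end of Nap1l4, a histone chaperone gene, lies 10.4 kb beyond Phlda2. The last peak ended 3806 bp past Phlda2 under DMSO and 902 under GSK343 in WT and 4662 and 2192 bp in the mutant. The windows of Nap1l4, of Tssc4 and of Cd81, a tetraspanin of the B cell coreceptor, had no base in a peak in any list. Kcnq1 (chr7:143106877-143427050), a potassium channel gene, was covered by 3.31%, 0.742%, 10.9% and 0.940%. Its highest peak in WT DMSO, 4.1-fold and 6.147 kb wide, lay across one end of the gene (chr7:143104879-143111025). Kcnq1ot1, the paternally expressed antisense RNA that silences the cluster, was covered by 0.281%, 0%, 8.34% and 0.518%, and its start site lay 12833 bp from the nearest WT DMSO peak and 12159 bp from the nearest mutant DMSO peak.

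**Figure D2:**
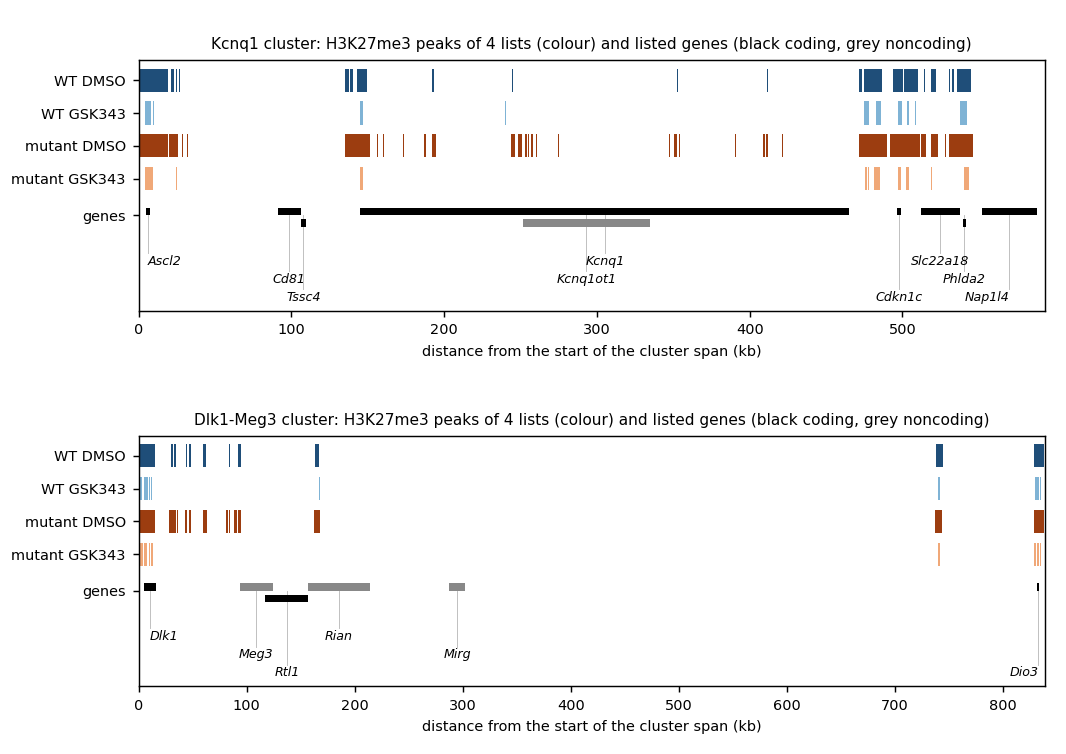
Peaks of the 4 lists (coloured bars) and the members (black coding, grey noncoding) along the Kcnq1 and the Dlk1-Meg3 clusters, with distance from the start of each cluster span in kb on the x axis. Wide DMSO peaks lie over Ascl2, Cdkn1c and Phlda2 in the former and over Dlk1 and Dio3 in the latter, further peaks lie between members, and the windows of Cd81, Tssc4, Nap1l4 and Mirg hold none.

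The Igf2-H19 cluster lies close by on chromosome 7. Over its 334 kb the covered share was 12.3% under DMSO and 2.84% under GSK343 in WT and 25.3% and 2.35% in the mutant. Igf2 (chr7:142650768-142666816), a paternally expressed growth factor of the fetus, had shares of 53.9%, 25.9%, 63.3% and 30.2%. One peak of 13.7 kb (chr7:142653753-142667431, 3.99-fold) covered most of the gene in WT DMSO, and the widest peaks in the other lists were 4.83, 15.2 and 5.15 kb.

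H19 (chr7:142575530-142578146) is the maternally expressed noncoding RNA of the same cluster, and was covered by 23.6% under DMSO and 11.6% under GSK343 in WT and 52.3% and 0% in the mutant. Th (chr7:142892779-142899995), the gene of tyrosine hydroxylase in catecholamine synthesis, had 37.9%, 0%, 53.4% and 0%. Ins2, an insulin gene, had 1.82%, 0%, 9.77% and 0%. Within this cluster Igf2 was the only one of the 4 members with a peak in all 4 lists. H19 had one in all lists except mutant GSK343.

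In the Dlk1-Meg3 cluster on chromosome 12 the members covered furthest were the 2 outer protein-coding genes. Of the 13 WT DMSO peaks in its span, 1 lay at each of these and most lay outside the members' windows. Dlk1 (chr12:109452485-109463336), a paternally expressed membrane protein with epidermal growth factor-like repeats, was covered by 71.3% under DMSO and 36.8% under GSK343 in WT and 71.8% and 36.9% in the mutant. Dio3 (chr12:110279230-110281097), an enzyme that inactivates thyroid hormone, had 85.2%, 35.3%, 80.6% and 42.1%. The widest peaks of the cluster measured 20.5 kb (chr12:109441827-109462342), 4.16 kb, 20.6 kb and 2.84 kb, the first 3 over Dlk1 and the last, in mutant GSK343 (chr12:109448583-109451420), in the flank before it. The covered shares of Dlk1 differed by less than 1 percentage point between the genotypes under either treatment, and Dio3 was 1 of only 2 members lower in mutant DMSO than in WT DMSO. The genes between them carried little. Meg3 (chr12:109540996-109571729), a maternally expressed noncoding RNA, was covered by 5.72%, 0%, 13.4% and 1.32%. A peak of 2329 bp lay across its start site in WT DMSO (chr12:109539930-109542258) and one of 3338 bp in mutant DMSO, where a further peak of 2145 bp stood in the flank. Rian had 6.14%, 1.10%, 9.19% and 0%, the retrotransposon-derived Rtl1 had a peak in mutant DMSO only (0.612%), and Mirg had none.

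Growth regulators at single-gene domains came next. Grb10 (chr11:11930499-12037428), an adaptor that binds the insulin receptor, was covered by 23.6% under DMSO and 5.47% under GSK343 in WT and 36.3% and 4.12% in the mutant. Its widest peaks measured 12, 4.66, 22.1 and 2.23 kb. The start site at chr11:12037420 lay in a peak in all 4 lists, whereas the adjacent Ddc, which encodes the enzyme that makes dopamine, had no peak in its window in any list. Zdbf2 (chr1:63200358-63314576), a paternally expressed zinc finger gene, had 36.2%, 8.10%, 43.9% and 7.1%. It held the widest peak of any cluster in the DMSO lists, 35.4 kb in WT (chr1:63243508-63278876) and 39.3 kb in the mutant (chr1:63242239-63281525), while under GSK343 the widest were 3.41 and 1.94 kb. The start site inside the gene at chr1:63273269 lay in a peak in all 4 lists, and the outer one at chr1:63200358 in none.

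Mest (chr6:30733506-30748466), a paternally expressed gene of the hydrolase fold family, was covered by 40.8% under DMSO and 15% under GSK343 in WT and 49.3% and 8.40% in the mutant. Copg2, the coat protein gene beside it, had none in any list. Plagl1 (chr10:13090832-13131694), a zinc finger gene, had 11.6%, 1.86%, 19.2% and 0.822%. The peak over its start site measured 5.92, 0.946, 7.86 and 0.418 kb, and mutant DMSO held 2 more peaks in the window. Sfmbt2, which encodes a Polycomb group protein, had 5.33%, 1.57%, 6.00% and 2.04%, low shares of a long window that nonetheless came from DMSO peaks up to 12.9 kb wide in WT and 17.6 kb in the mutant.

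On chromosome 2, Nnat (chr2:157560078-157562525) lies inside an intron of Blcap (chr2:157556362-157566361). Nnat, a small membrane protein of neurons, was covered by 41.9% under DMSO and 10.7% under GSK343 in WT and 42.9% and 5.15% in the mutant. Blcap had 26.1%, 6.64%, 26.7% and 3.21% from the same peaks, and its own start site lay 2618 bp from the nearest WT DMSO peak. Gnas (chr2:174284320-174346744), which encodes the stimulatory G protein alpha subunit and several alternative first exons, had 18.2%, 7.88%, 26.7% and 6.07%. The outermost start site, at chr2:174284320, lay in a peak in both DMSO lists and in neither GSK343 list. The nearest GSK343 peak lay 276 bp from that start in WT and 418 bp in the mutant. A further peak inside the gene was present in all 4 lists. It was 6.69 kb wide in WT DMSO (chr2:174295233-174301925), 3.63 kb in WT GSK343, 6.74 kb in mutant DMSO and 2.52 kb in mutant GSK343. The other 3 start sites of Gnas in the table lay outside peaks in every list, at 17622, 17641 and 19879 bp from the nearest WT DMSO peak.

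The Peg10 cluster on chromosome 6 had short peaks and 1 wide domain. Asb4 (chr6:5383386-5433022), an ankyrin repeat protein of a ubiquitin ligase, was covered by 23.5% under DMSO and 4.17% under GSK343 in WT and 38% and 2.66% in the mutant, with DMSO peaks up to 13.2 kb wide in WT and 12.4 kb in the mutant. Peg10 (chr6:4747306-4760517), a retrotransposon-derived gene needed for the placenta, had 11.0%, 0%, 20.7% and 0%. Sgce, which shares that region, had 3.08%, 0%, 6.78% and 0%. Ppp1r9a, a neuronal actin-binding protein, had 1.29%, 0.631%, 1.30% and 0.660%, from a narrow peak at its start site that was present in all 4 lists. Calcr, the calcitonin receptor, had 1.66%, 0.672%, 3.03% and 0%.

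Narrow peaks also marked the Peg3 and Igf2r clusters. Peg3 (chr7:6703892-6730462), a zinc finger gene, and Usp29, a ubiquitin protease gene, start opposite each other, and a peak of 2.52 kb covered both start sites in WT DMSO (chr7:6728631-6731154). The widest peak there was 1.24 kb in WT GSK343 and 3.70 kb in mutant DMSO, and there was none in mutant GSK343. Peg3 was covered by 6.90%, 3.39%, 10.1% and 0% and Usp29 by 1.02%, 0.502%, 1.5% and 0%. The third member, Zim1, had none in any list. In the Igf2r cluster, Airn, the paternally expressed antisense RNA that silences Igf2r, carried a peak of 1564 bp over its start site in WT DMSO (chr17:12741288-12742851). In mutant DMSO the peak there (chr17:12741528-12742926) began just past the start, and no GSK343 list held one. The shares of the Airn window were 1.22%, 0%, 2.00% and 0%. Igf2r (chr17:12682406-12769706), the receptor that clears IGF2, overlaps Airn and had 1.61%, 0%, 1.94% and 0%. Its own start site lay 26855 bp from the nearest WT DMSO peak and 10625 bp from the nearest mutant DMSO peak. Slc22a3, an organic cation transporter, had 4.1%, 1.02%, 5.20% and 2.27%, and its relative Slc22a2 had none.

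Little of the remaining loci was covered. The Snrpn-Ndn cluster spans 3201 kb and had 0.0441% of its length in DMSO peaks in WT and 0.188% in the mutant, with no base in either GSK343 list. Magel2 was covered by 3.81% in WT DMSO alone. Snrpn, a splicing protein gene, and Ube3a, a ubiquitin ligase gene, had 0.549% and 0.433% in mutant DMSO alone, and Ndn and Mkrn3 had none. Kcnk9 (chr15:72501873-72548614), a maternally expressed potassium channel, had 10.1%, 6.19%, 19.9% and 7.42%, just under the 20% above which members are described in full. Its highest peak in WT DMSO reached 4.70-fold, a value met or passed by 0.19% of the peaks of that list. Its neighbours Trappc9 and Peg13, and Impact, which is a cluster of its own here, had no peak in their windows in any list.

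Start sites came from the RefSeq promoter table, which listed 38 of the members. At least 1 start site lay in a peak for 21 of them under DMSO and 14 under GSK343 in WT and 20 and 11 in the mutant, against 17.6%, 11.1%, 20% and 10.2% of the 26794 genes with a start site. In 10 members (Ascl2, Dio3, Grb10, Igf2, Mest, Phlda2, Plagl1, Ppp1r9a, Sfmbt2 and Zdbf2) this was so in all 4 lists. With a q-value of at most 0.01 the counts were 20, 8, 20 and 10. Dio3, Mest, Plagl1 and Sfmbt2 then had no start site in a WT GSK343 peak. The WT DMSO peaks at the 21 starts had very unequal widths. In 10 members they were between 8.264 kb at Mest and 35.4 kb at Zdbf2, and in the other 11 between 0.559 kb at Magel2 and 5.983 kb at Gnas.

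**Figure D3:**
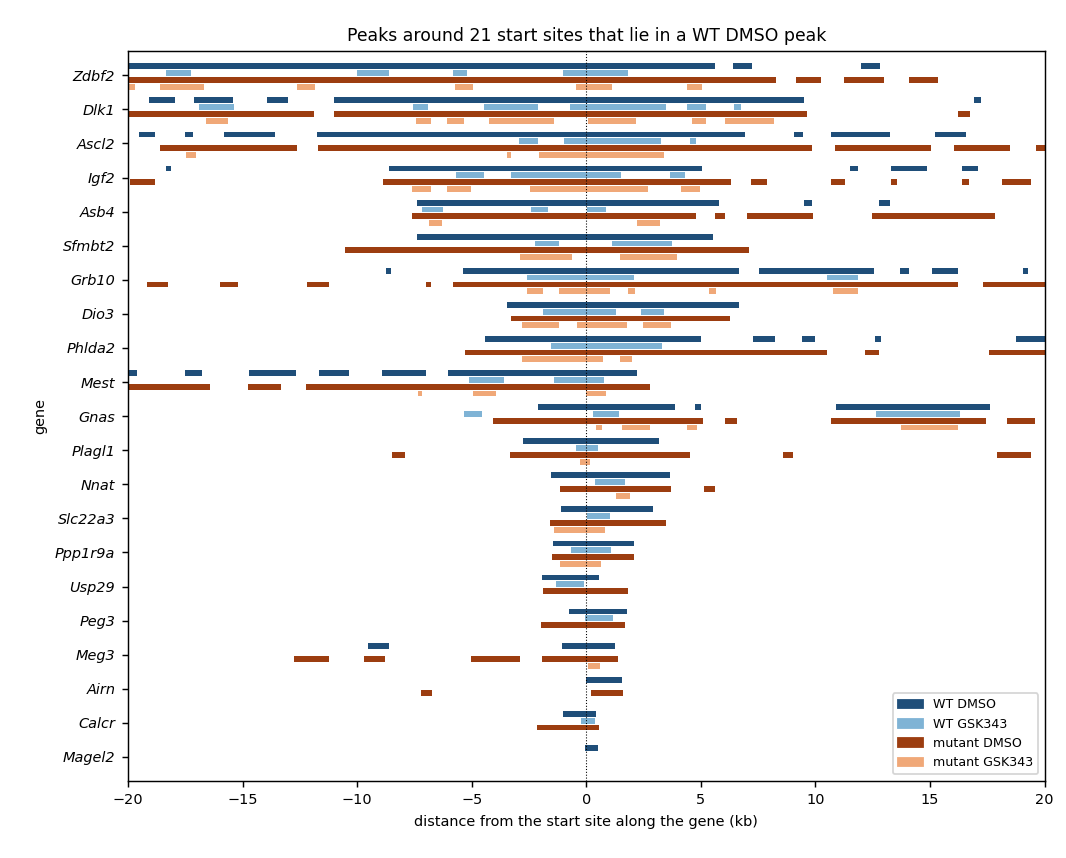
Peaks of the 4 lists (coloured bars) around the start site of the 21 members whose start lies in a WT DMSO peak, with distance along the gene in kb on the x axis and genes sorted by the width of that peak. Wide domains from Zdbf2 to Mest are broken into short pieces in the GSK343 lists, and narrow peaks from Gnas to Magel2 sit close to the start.

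The start sites were also split by CG content. Of the 23 members whose richest start had at least 15 CG in 300 bases (250 before and 50 after), 14 had any of their starts in a peak under DMSO and 11 under GSK343 in WT, and 15 and 10 in the mutant. At Sfmbt2 under GSK343 that was its start with 9 CG, not the one with 16. Those counts are 60.9%, 47.8%, 65.2% and 43.5%, where 25.1%, 20.3%, 26.0% and 18.8% of the 10034 genes with such promoters had. Of the 15 members with fewer CG, 7, 3, 5 and 1 had a start in a peak, beside 13%, 5.56%, 16.4% and 5.06% of 16760 genes. In WT DMSO the median member with a start in a peak had 17 CG at its richest start and the median member without had 15, whereas over all genes the medians were 16 and 6. The gap between members was wider in the other lists. Their medians with and without were 24.5 and 14 in WT GSK343, 20 and 10.5 in mutant DMSO, and 25 and 13 in mutant GSK343. Over all genes these were 20 and 7, 14 and 7, and 20 and 7.

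Under GSK343 the covered share was lower in every member that had a peak under DMSO, 34 of 34 in WT and 36 of 36 in the mutant, and the same held for 99.3% and 99.9% of all such genes. No GSK343 peak at all was left in the window of 9 of the 34 WT members and 14 of the 36 mutant members, against 44% and 54.6% of all genes overlapped under DMSO. Ins2, Th, Peg10, Sgce, Igf2r and Airn were among them in both genotypes. Of the bases covered under DMSO in the members' windows, 30.0% were also covered under GSK343 in WT (78.4 of 261 kb) and 19.5% in the mutant (73.5 of 377 kb), beside 28.3% and 15.8% over all genes. The share kept varied widely between members. Dlk1 kept 51.6% in WT and 51.3% in the mutant, Igf2 48.1% and 47.6%, Phlda2 51.1% and 36.0%, and Ascl2 44.5% and 45.2%. Dio3 kept 41.4% and 52.2%, Cdkn1c 39.5% and 29.3%, and Slc22a18 37.3% and 13.1%. With a q-value of at most 0.01, Dio3 had no base in a WT GSK343 peak. By cluster, the kept share was 29.5% in WT and 25.7% in the mutant at Dlk1-Meg3, 29% and 17.3% at Kcnq1, 21.7% and 9.29% at Igf2-H19, and 14.6% and 5.75% at Peg10. It was higher in the mutant in the Igf2r cluster, 17.3% and 27.2%, and at Sfmbt2, 29.4% and 34.1%. In the Igf2r cluster the only GSK343 peak of either genotype lay at Slc22a3, and the windows of Igf2r and Airn kept none. By cluster, the highest kept share in WT was 61.4% at Peg13-Kcnk9, where the mutant kept 33.0%. The highest in the mutant was the 34.1% at Sfmbt2.

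Over all genes the median share under GSK343 was higher in each bin of higher DMSO share, apart from the lowest bins at 0, so members were set beside genes of like DMSO coverage. In the mutant, genes covered by 60 to 70% under DMSO had a median of 10.3% under GSK343 and a 90th percentile of 32.1%, and Igf2 lay at 30.2%. Genes covered by 70 to 80% had a median of 13.2% and a 90th percentile of 36.9%, and Dlk1 lay at 36.9%. Dio3 lay at 42.1%, where genes covered by 80 to 90% had a median of 18.9% and a 90th percentile of 49.6%. In WT the medians of like genes were 18.2% for Igf2, 30.6% for Dlk1 and 37.1% for Dio3, nearer to the members' 25.9%, 36.8% and 35.3%. With a q-value of at most 0.01, Dlk1 was at 23.8% in mutant GSK343 and Dio3 at 0% in WT GSK343. Medians of like genes at that cutoff are not given here. Ascl2 stood below the WT median of its class, 42.7% against 64.6%, and above that of the mutant, 45.2% against 39.3%. The other members covered by at least 50% in mutant DMSO lay below the mutant medians. Cdkn1c had 28.8% and Phlda2 35% against 39.3%, Slc22a18 had 9.10% against 10.3%, and H19 and Th had 0% against 6.19%. In WT, Cdkn1c (30.0% against 30.6%) and Th (0% against 9.30%) also lay below the medians of like genes. Phlda2 (41.5% against 37.1%), Slc22a18 (16.4% against 12.3%) and H19 (11.6% against 4.96%) lay above. With a q-value of at most 0.01, H19 was at 0% in WT GSK343.

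**Figure D4:**
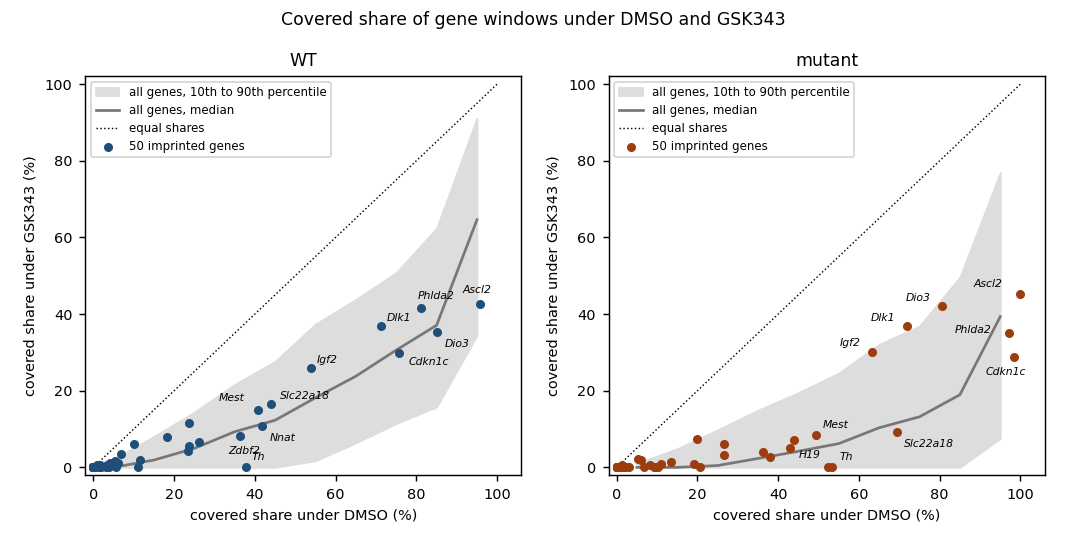
Covered share under GSK343 against that under DMSO for the 50 imprinted genes (points) in WT and mutant, both axes in percent, with the median (line) and the 10th to 90th percentile (grey) of all genes in bins of DMSO share. All members with a DMSO peak lie below the line of equal shares, and Igf2, Dlk1 and Dio3 lie high in the grey band in the mutant.

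Between the genotypes the members followed the lists. Under DMSO, 35 of the 37 members with a peak in WT or mutant were covered further in the mutant, against 85.2% of all such genes, with a median difference of 4.13 percentage points beside 3.79 over all genes. Dio3 and Magel2 were lower. With the same number of top peaks taken from each list, 23 members were higher in the mutant and 9 lower. The share over all genes at that setting is not given here, so that count has no background. Under GSK343, 11 of 27 members were covered further in the mutant and 16 less, against 34.8% of all genes covered further, with a median difference of -1.01 points beside -0.748. H19 differed in both directions, at 52.3% against 23.6% under DMSO and 0% against 11.6% under GSK343. With a q-value of at most 0.01, the share of H19 was 0% in both GSK343 lists, so only its DMSO difference remained. Rtl1, Snrpn and Ube3a had a DMSO peak in the mutant only, and Magel2 in WT only. With a q-value of at most 0.01, Rtl1, Ube3a and Magel2 had no DMSO peak in either genotype. Snrpn still had one in the mutant only.

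Members were also counted by expressed allele and by kind of RNA. Of 25 maternally expressed members, 16, 13, 17 and 11 were overlapped, and of 23 paternally expressed members 16, 10, 17 and 9. Blcap and Gnas, expressed from either copy by isoform or promoter, were left out of both groups. The median covered shares of the maternal and the paternal group were 3.31% and 3.08% in WT DMSO and 5.20% and 6.78% in mutant DMSO. The 7 noncoding members were overlapped in 5, 2, 5 and 2 cases, against 34.7%, 16.7%, 40.4% and 15% of all long noncoding RNA genes. The 43 coding members were overlapped in 29, 23, 31 and 20, against 43.5%, 26.3%, 48.9% and 24.4% of all protein-coding genes. No noncoding member other than H19 reached 20% in any list.

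Of 38 further imprinted genes, 36 were found by symbol, and Nespas and Zfp264 were not analysed here. Peaks overlapped 21 of the 36 under DMSO and 13 under GSK343 in WT and 22 and 15 in the mutant, with median shares of 1.05%, 0%, 2.2% and 0%. Over all genes 40.2%, 22.7%, 45.7% and 20.9% were overlapped. Klf14, a single-exon transcription factor gene near Mest, was covered by 100%, 39.6%, 100% and 20.3%. Igf2os, which overlaps Igf2 and shares its peaks, had 61.7%, 31.7%, 62.9% and 34.0%. The next highest were Rasgrf1, a Ras exchange factor gene, with 41.0%, 7.85%, 52.1% and 6.79%, Begain with 35.7%, 11.7%, 47.8% and 10.9%, and Gpr1 with 19.7%, 0%, 29.3% and 0%.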

How the data were processed

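H3K27me3 ChIP-seq of 16 samples (8 ChIP, 8 input) was analysed from 4 peak lists, each assigned to genotype and treatment by the prefix of its peak names. Per the submitters' processing notes the build was mm10 (GRCm38) and the tools included Bowtie2 2.4.2, SAMtools 1.12, MACS2 2.2.7.1, bedtools 2.29.2 and deepTools 3.5.1. The notes give no settings or order. The peak names carry a folder name for pooled duplicates. Each peak carries a fold (a ratio, not logged, of ChIP to background), a −log10 p-value and a −log10 q-value, all the authors' deposited values, used to describe or filter peaks within a list. The lowest −log10 q-value was 1.04, 1.07, 1.03 and 1.07 in the 4 lists.

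Gene bodies came from the RefSeq table of GRCm38.p6. Peaks of a list were merged where they overlapped, and the covered bases of each body plus 5 kb each side were divided by the window length. Cluster spans ran from the first to the last base of their members' windows. Start sites and CG counts came from the RefSeq promoter table. With 1 list per group no test was made, and counts stand beside the same percent over all genes. Read depth and counting error are unknown from these lists.

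All members were accounted for, and those covered by at least 20% in at least 1 list were given in full. In each cluster the widest peak of each list was considered, and of the further imprinted genes the 5 with the highest mean share were named. The members, clusters and lists were chosen with earlier results of these data known. Kcnk9's fold, Kcnq1's peak and the members named for genotype or response were picked after their values were seen.

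The alternatives were a q-value of at most 0.01, a −log10 p-value of at least 5, a fold of at least 3, equally many top peaks per list (by p-value), joining peaks under 3 kb apart, a minimum width of 1 kb, and flanks of 0 or 10 kb. Python 3.11.15, numpy 2.4.6, pandas 2.3.3 and matplotlib 3.10.9 were used, and the interval code was checked on simulated data and against bedtools 2.31.1. One gene of the fixed B cell marker list is not reported here.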

Additional observations from a re-analysis of the deposited data

Results flagged for a closer look

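The mutant list covered more of the members than the WT list under DMSO and less under GSK343. These opposite directions were not tested, since each group has 1 list. The number of members overlapped differed by 2 (mutant minus WT) under DMSO and by -3 under GSK343. Over the joined length of all member windows the difference was 2.92 percentage points under DMSO and -0.180 under GSK343, where it was 0.00318 with a q-value of at most 0.01.

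The same opposite signs appeared in 10 of the 16 clusters and loci. Dlk1-Meg3, Igf2r, Sfmbt2 and Peg13-Kcnk9 were covered further in the mutant under both treatments, Snrpn-Ndn under DMSO alone, and Impact had no peak. In the Igf2r cluster the only GSK343 peak of either genotype lay at Slc22a3. In percentage points under DMSO and then GSK343, the difference was 13 and -0.488 at Igf2-H19, 8.28 and -0.222 at Kcnq1, and 6.35 and -0.676 at Grb10. It was 8.51 and -1.81 at Gnas, 7.70 and -1.01 at Zdbf2, and 7.60 and -1.04 at Plagl1. It was 1.89 and -0.0566 at Peg10, and 1.22 and -0.943 at Mest. Peg3 had 0.389 and -0.409, and Nnat had 0.635 and -3.44. The whole lists differed the same way, at 134 against 84.3 Mb covered under DMSO and 16.95 against 21.1 Mb under GSK343, and their part in these differences was not tested.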

How the results depend on the processing

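No paired analysis was possible because 1 peak list with no values per replicate stands for each group, which also kept single replicates from being left out. Of 180 summary values under the alternatives, 130 stayed within 1.5 times (counts) or in place, 49 moved and 1 reversed, and the cause was not tested. Of the shares of single members and clusters, 390 of 2112 moved by over 1.5 times.

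With a q-value of at most 0.01, the joined length of member windows covered under GSK343 was 0.00318 percentage points higher in the mutant, against a difference of -0.180 points with all peaks. The median share was 2.13% in WT DMSO and 0% in WT GSK343, the share of DMSO bases kept was 23.6% in WT and 16.7% in the mutant, and start sites of 8 members lay in a WT GSK343 peak. At −log10 p-values of 5 or more, the medians were 0% in WT DMSO, 0% in WT GSK343 and 1.40% in mutant DMSO. The kept shares were 24.0% and 17.5%, 22 members were higher in mutant DMSO, the mutant minus WT differences of joined length were 1.44 and -0.0861 points, and 8 members had a start in a WT GSK343 peak. With a fold of at least 3, 18 members were overlapped in WT DMSO and 20 in mutant DMSO, and the medians of WT DMSO, WT GSK343 and mutant DMSO were 0%. The WT kept share was 29.5%, 17 members were higher in mutant DMSO, the DMSO difference was 1.42 points, and starts lay in peaks for 13 members in WT DMSO and 8 in WT GSK343.

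With the same number of top peaks per list, the medians were 1.45% in WT DMSO and 1.47% in mutant DMSO. The kept shares were 33.3% and 25%, 23 members were higher in mutant DMSO, and the differences were 1.68 and -0.107 points. With peaks closer than 3 kb merged, 2 members in WT GSK343 and 3 in mutant GSK343 were covered by at least 50%, and 35.4% and 23.7% of bases were kept. With peaks of at least 1 kb, the WT GSK343 median was 0%, and 27.2% and 17% were kept. Without flanks, 5 members in WT GSK343 and 4 in mutant GSK343 were covered by at least 50%, the medians were 0% in WT GSK343 and 4.80% in mutant DMSO, 30.4% and 18.9% were kept, and 7 members were higher in mutant GSK343. With flanks of 10 kb, the WT GSK343 median was 0.606%, 5 members in mutant DMSO were covered by at least 50%, and 27.1% and 17.6% were kept. The background of short windows and the start-site counts under other thresholds were chosen after seeing the data.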
